A study of Mus musculus with 12 samples.

Results

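Transcripts of 10 interferon-inducible GTPase genes were examined in tumourspheres of mouse mammary tumour cell lines treated with inhibitors of the receptor kinases Met and FGFR. The genes were the immunity-related GTPases Iigp1, Tgtp1, Tgtp2, Igtp, Irgm1 and Irgm2 and the guanylate-binding proteins Gbp2, Gbp3, Gbp7 and Gbp10, taken by symbol from a count table of 55573 genes. They were chosen by their measured counts, which were lower with the Met inhibitor and higher with the FGFR inhibitor than with vehicle. Those differences are therefore described without a test.

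RNA was sequenced from 3 cell lines of spindloid tumours, named A1005, A1129 and A1471, all of which carry the genotype MMTV-Metmt;Trp53fl/+;Cre. The MMTV promoter directs the mutant Met transgene to mammary epithelium, each line came from an independent tumour, and spindloid describes the spindle-cell histology. Tumourspheres of each line were exposed for 24 h to DMSO, to Crizotinib (a Met inhibitor), to PD173074 (an FGFR inhibitor) or to both inhibitors together (the combination), with 1 µM of each inhibitor, in medium that lacked serum but held EGF and bFGF. This gave 12 libraries, 1 per line and treatment, so n = 3 lines per treatment and each treatment has a library of every line.

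Interferons bind receptors that activate Janus kinases and STAT transcription factors. The activated factors bind promoter elements of their target genes, among them the gamma-activated site (GAS) and the interferon-stimulated response element (ISRE). The GTPases induced in this way coat and disrupt the vacuoles in which intracellular pathogens grow. Among the immunity-related GTPases, Iigp1, Tgtp1 and Tgtp2 encode effectors with the canonical nucleotide-binding motif that load onto such vacuoles. Irgm1, Irgm2 and Igtp (Irgm3) encode the regulatory proteins that sit on the cell's own membranes and hold the effectors inactive there. The guanylate-binding proteins are larger GTPases that assemble on microbial membranes and assist in innate immune signalling.

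The genes lie in a few clusters of the mouse genome (build mm10, GENCODE annotation). On chromosome 11, Irgm1 (chr11:48861968-48871683), Tgtp1 (chr11:48985327-48994172) and Tgtp2 (chr11:49057194-49064206) are neighbours on the minus strand, while Igtp (chr11:58199556-58207591) and Irgm2 (chr11:58199618-58222782) overlap on the plus strand. Gbp7 (chr3:142530342-142550149), Gbp3 (chr3:142560026-142573209) and Gbp2 (chr3:142620602-142638008) follow each other on the plus strand of chromosome 3. Gbp10 (chr5:105215699-105239533) is on the minus strand of chromosome 5 and Iigp1 on chromosome 18.

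The sequence before the transcription start of 8 of the 10 genes, all but Gbp10 and Iigp1, was matched in RefSeq (GRCm38.p6, the same build). The ISRE core was searched as GAAA, any 2 bases and GAAA again, on both strands and the GAS core as TTCNNNGAA, which reads the same on both strands, in the 250 bases before each start. All 8 genes held an ISRE core, against 2.97% of 32817 promoters, and 5 held a GAS core, against 7.01%. Both motifs stood in front of Tgtp1, Tgtp2, Igtp, Irgm2 and Gbp7, and 0.329% of all promoters held both. Tgtp1 and Tgtp2, and likewise Igtp and Irgm2, hold nearly the same bases around these cores. The 8 promoters are therefore not independent of each other. The 110 bases before the start of Tgtp2, Igtp, Irgm2 and Gbp7 are shown 5′ to 3′ with both cores in capitals, because these 4 hold both cores and no annotated exon.

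Tgtp2 (chr11:49064213-49064322, minus strand): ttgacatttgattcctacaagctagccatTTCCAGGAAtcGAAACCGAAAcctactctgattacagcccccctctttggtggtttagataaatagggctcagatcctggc

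Igtp (chr11:58199446-58199555, plus strand): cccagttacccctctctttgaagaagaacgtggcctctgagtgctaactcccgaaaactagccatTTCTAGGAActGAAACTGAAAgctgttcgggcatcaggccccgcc

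Irgm2 (chr11:58214867-58214976, plus strand): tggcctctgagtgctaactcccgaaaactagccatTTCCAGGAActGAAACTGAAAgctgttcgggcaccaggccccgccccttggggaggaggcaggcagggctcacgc

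Gbp7 (chr3:142530226-142530335, plus strand): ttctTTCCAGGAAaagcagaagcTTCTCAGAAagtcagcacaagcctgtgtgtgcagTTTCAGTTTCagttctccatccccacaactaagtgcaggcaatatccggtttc

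In Tgtp2, Igtp and Irgm2 the GAS core was followed after 2 bases by the ISRE core, and Tgtp1 had the same order and spacing at 88 to 68 bases before its start. Gbp7 had 2 GAS cores further upstream and its ISRE core on the other strand. Irgm1 and Gbp3 each held 2 overlapping ISRE cores and Gbp2 held 1, none of them with a GAS core. The second annotated start of Gbp3 had neither motif.

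**Figure D1:**
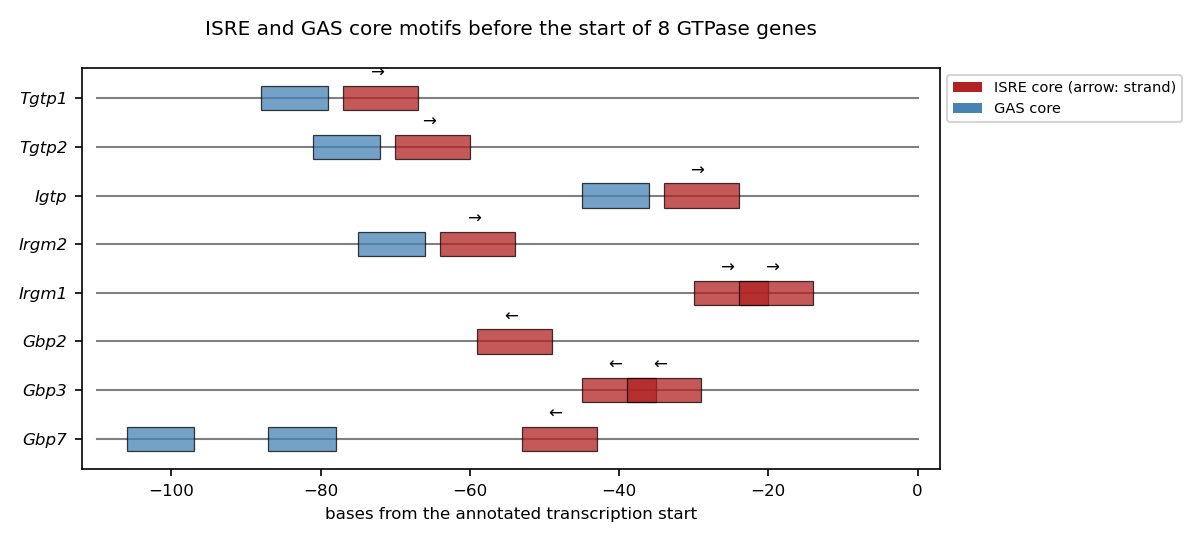
Positions of the ISRE core (red, with an arrow for its strand) and the GAS core (blue) in the 110 bases before the annotated start of 8 of the genes. The horizontal axis is the distance from the start in bases. In Tgtp1, Tgtp2, Igtp and Irgm2 a GAS core stands just before an ISRE core, and in Irgm1 and Gbp3 the 2 ISRE cores overlap.

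Total counts ranged from 13031492 to 17750476 per library. The sphere cultures carried transcripts of mesenchymal cells, with 7 markers (Vim, Fn1, Zeb1, Twist1, Prrx1, Sparc, Col1a1) summing to 3565 to 9990 CPM (counts scaled to a common library total) in each library. With DMSO the largest part was Vim (2890 ± 353 CPM), whereas Prrx1 (202 ± 175) and Col1a1 (76.2 ± 132) differed widely between the lines (SD, n = 3). Of 9 leukocyte markers, 7 had at most 3 counts in each of the 12 libraries and Lyz2, Tyrobp and Nkg7 were among those with 0. The leukocyte sum was 13.5 to 20.2 CPM in A1005, nearly all from Ptprc, and at most 0.336 CPM in A1129 and A1471. The sum of 5 endothelial markers was at most 0.864 CPM, and that of 7 epithelial markers was 7.42 to 53.2 CPM with Krt5 and Cldn7 at 0. In bulk RNA of this kind, fewer cells that express a gene and less RNA per cell cannot be told apart.

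The effector genes were at or near 0 counts with Crizotinib. Iigp1 had 118, 104 and 23 counts with DMSO in A1005, A1129 and A1471, whereas the Crizotinib libraries held 3, 2 and 1. The ratio of the summed counts, 6 against 245 and scaled to the library totals, was 0.0238 (95% exact counting interval 0.00867 to 0.0526). Tgtp1 had 9, 6 and 4 counts with DMSO and Tgtp2 had 10, 6 and 3, and both had 0 with Crizotinib in every line. With a floor of 3 counts over the 3 libraries, each was at least 6.51-fold lower, and these intervals and floors cover counting error only. They are not a test, because the genes were chosen for being lower with Crizotinib. Tgtp1 and Tgtp2 are near-identical copies, with 89.4% and 89.8% of the 50-base stretches of 1 transcript found in the other, so their counts are uncertain as to which gene the reads came from.

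The regulatory genes were lower with Crizotinib by much smaller amounts. Irgm1 had 144, 159 and 137 counts with DMSO against 134, 91 and 105 with Crizotinib (lines in the same order), so every line was lower. Irgm2 had 69, 45 and 17 counts with DMSO against 64, 29 and 7 with Crizotinib, and Igtp had 99, 86 and 22 against 58, 32 and 12. For Irgm2 and Igtp the difference between the lines was larger than the difference between the treatments. The mean log2 change over the 3 lines, on CPM with a prior count of 2, was -0.47 ± 0.28 for Irgm1, -0.64 ± 0.37 for Irgm2 and -1.01 ± 0.32 for Igtp (SD, n = 3). The same quantity was -4.18 ± 0.97 for Iigp1.

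Among the guanylate-binding proteins, Gbp2 had 392, 252 and 205 counts under DMSO and 221, 98 and 97 under Crizotinib. Its log2 changes were close to each other, -1.01, -1.34 and -1.01 in A1005, A1129 and A1471. Gbp3 had 142, 103 and 45 counts with DMSO against 115, 41 and 32, and Gbp7 had 325, 85 and 75 against 280, 55 and 40. Gbp10 had 15, 2 and 4 counts in the DMSO libraries and 0, 1 and 0 in the Crizotinib libraries, a summed ratio of 0.0464 with a wide counting interval (0.00112 to 0.288). All 10 genes were thus lower with Crizotinib in each of the 3 lines, as were 17.7% of the 13836 genes that passed the filter on low counts, and the genes had been chosen for this. All 10 passed that filter in the comparisons of treatments.

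With PD173074 alone the counts were higher. Iigp1 had 380, 126 and 97 counts in A1005, A1129 and A1471, which is 1.31, 0.39 and 2.03 above DMSO on the log2 scale. Tgtp2 had 34, 12 and 5 counts. Tgtp1 had 28, 12 and 3, and in A1471 its 3 counts were below the 4 counts with DMSO, which made it the exception among the 10 genes. The remaining 9 were higher with PD173074 in each of the 3 lines, as were 24.1% of all genes tested. The same 9 were lower with Crizotinib and higher with PD173074 in every line, a pattern shared by 3.41% of all genes tested and one that the choice of genes fixed.

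Among the regulators, Irgm1 had 395, 271 and 476 counts with PD173074. Irgm2 had 308, 74 and 94 and Igtp had 239, 86 and 142. The Igtp count in A1129 was 86 with both DMSO and PD173074, a log2 change in CPM of 0.12. Gbp2 had 2275, 545 and 2989 counts, with log2 changes of 2.16, 1.23 and 3.90. Gbp3 had 496, 157 and 597 counts and Gbp7 had 836, 168 and 588. Gbp10 had 62, 13 and 20. The increase was largest in A1471 and smallest in A1129 for Gbp2, Gbp3, Irgm1, Irgm2, Igtp and Iigp1, while the log2 changes of Gbp10 differed little between lines (SD 0.23).

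**Figure D2:**
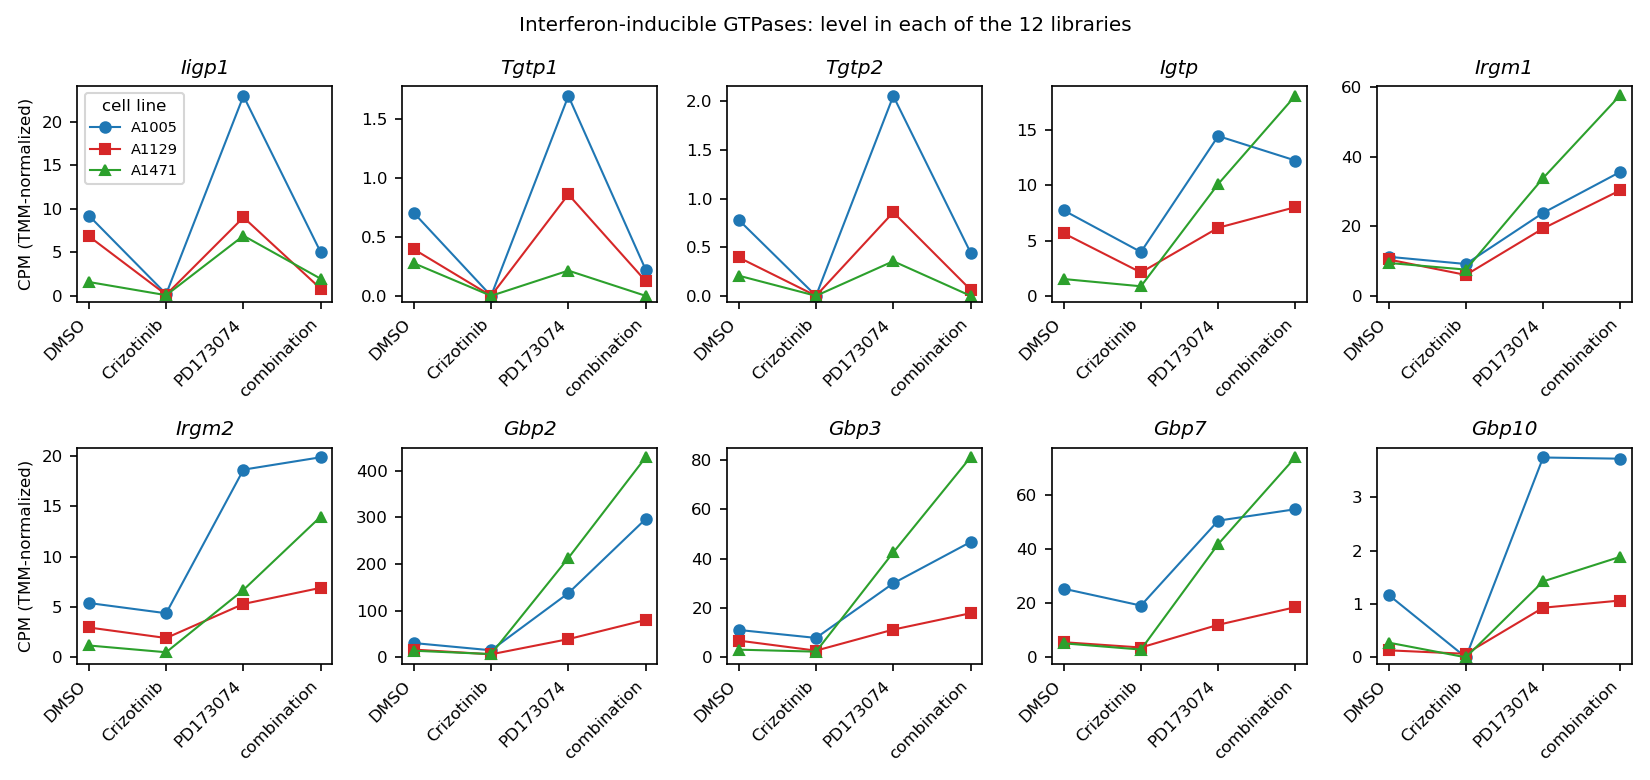
CPM (normalized by the trimmed mean of M values, TMM) of each gene in the 12 libraries, with treatments on the horizontal axis and 1 line joining the 4 libraries of each cell line. The vertical axes start at 0 and differ in scale. Iigp1, Tgtp1 and Tgtp2 peak with PD173074 in A1005 and A1129 and are lower again in the combination, whereas Irgm1, Gbp2 and Gbp3 are highest in the combination in every line.

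When both inhibitors were present, the effectors stood below their PD173074 level in every line. The PD173074 libraries had been used to choose the genes, so differences between the combination and PD173074 are described without a test. Iigp1 had 90, 13 and 26 counts in the combination, Tgtp1 had 4, 2 and 0, and Tgtp2 had 8, 1 and 0. The mean log2 difference between the combination and PD173074 was -2.40 ± 0.79 for Iigp1, -1.89 ± 0.49 for Tgtp1 and -2.04 ± 0.26 for Tgtp2 (SD, n = 3). With a prior count of 0.5 in place of 2 the means for Tgtp1 and Tgtp2 were -2.71 and -2.96, since their combination libraries hold 0 to 8 counts. In A1129 the 13 counts of Iigp1 stood between 2 with Crizotinib and 104 with DMSO, while in A1471 the 26 counts were near the 23 with DMSO.

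The regulators and the guanylate-binding proteins did not follow the effectors. Irgm1 had 642, 485 and 766 counts in the combination, higher than with PD173074 in each line by 0.58, 0.64 and 0.77 on the log2 scale. Irgm2 had 357, 110 and 185 counts and Igtp had 220, 128 and 240, with Igtp lower than with PD173074 in A1005 only. Gbp2 reached 5328, 1277 and 5677 counts, and its step from PD173074 to the combination was nearly the same in the 3 lines, 1.11, 1.03 and 1.01. Gbp3 had 840, 285 and 1074 counts, Gbp7 had 985, 296 and 981, and Gbp10 had 67, 17 and 25. Gbp10 differed from PD173074 by only 0.18 ± 0.19 (SD, n = 3).

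Lower counts in the combination than with PD173074 in all 3 lines were found for 3 of the 10 genes, the effectors. The same held for 29.2% of all genes tested, so the count is near that share. Higher counts in all 3 lines were found for 5 of the 10, Irgm1, Irgm2, Gbp2, Gbp3 and Gbp7, and for 32.3% of all genes tested. The full order of Crizotinib below DMSO below PD173074 below the combination held in every line for these 5 genes and for 1.99% of all genes tested. Because 2 of its 3 steps were used to choose the genes, that share is given for reference only. Against Crizotinib alone, the combination was higher in all 3 lines for 8 of the 10 genes (33.0% of all genes), and Tgtp1 and Tgtp2 were at 0 in both groups in A1471. The Crizotinib libraries had also been used to choose the genes.

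**Figure D3:**
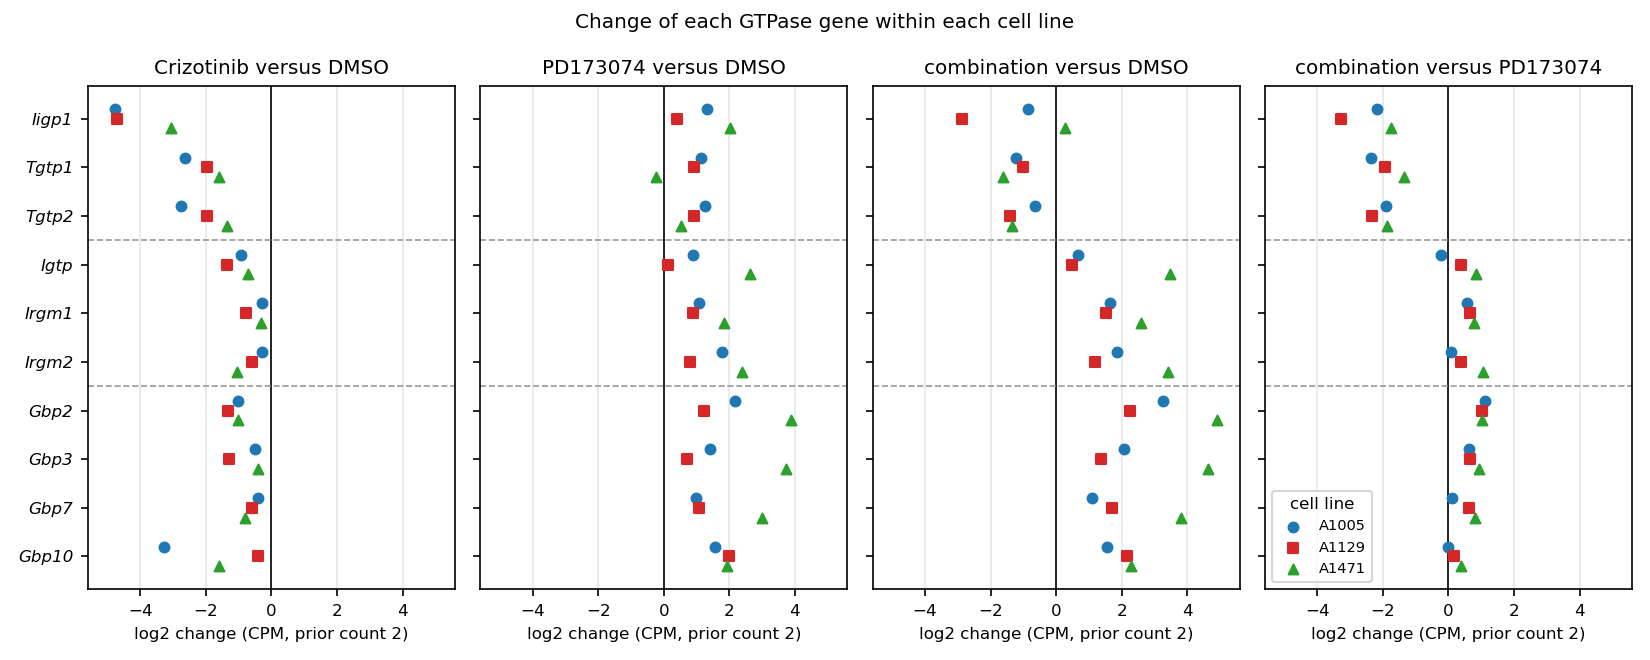
Log2 change in CPM (prior count 2) of each gene within each cell line for 4 comparisons of treatments. Dashed lines separate the effectors Iigp1, Tgtp1 and Tgtp2, the regulators Igtp, Irgm1 and Irgm2, and the guanylate-binding proteins. In the last panel the 3 effectors lie between -3.27 and -1.37 and the other 7 genes between -0.24 and 1.11.

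The combination was tested against DMSO, because the opposite effects by which the genes were chosen were those of Crizotinib and PD173074. The DMSO libraries had a part in that choice, and earlier results of these data were known. The p-values for the 10 genes are therefore not those of an independent test. Irgm1 rose by 1.99 ± 0.30 on the log2 scale (SE, adjusted p = 0.00291, edgeR quasi-likelihood test), from 10.4 ± 0.892 to 41.3 ± 14.5 CPM (SD, n = 3). Gbp2 rose by 3.71 ± 0.77 (adjusted p = 0.0119, edgeR), from 20.4 ± 8.88 to 268 ± 176 CPM, and Gbp3 rose by 2.80 ± 0.76 (adjusted p = 0.0369, edgeR). These were 3 of the 10 genes, and 6.1% of all genes tested rose while 8.28% fell. Irgm2 with 2.09 ± 0.84 (adjusted p = 0.13, edgeR), Gbp7 with 2.03 ± 0.94 (adjusted p = 0.188, edgeR), Gbp10 with 2.08 ± 0.96 (adjusted p = 0.184, edgeR) and Igtp with 1.36 ± 0.67 (adjusted p = 0.216, edgeR) did not pass. The median log2 fold change was 2.01 over the 10 genes and 0.02 over all genes tested. DESeq2 called 4 of the 10 higher, adding Irgm2 at 2.13 (adjusted p = 0.0384, DESeq2), where 9.92% of the genes it tested were higher. On CPM, 5 of the 10 genes (Igtp, Irgm1, Irgm2, Gbp2, Gbp3) had every combination library above every DMSO library, as in 13.8% of all genes. Tgtp1 was the 1 gene with every combination library below every DMSO library, as in 16.1%. Its groups met in raw counts, with 4 in the A1005 combination library (0.222 CPM) and 4 in the A1471 DMSO library (0.276 CPM).

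With the cell line as a block in the same edgeR test, 9 of the 10 genes passed, against 28.6% of all genes rising and 26.2% falling in that fit. The 7 regulators and guanylate-binding proteins rose, with Gbp7 at 2.23 (adjusted p = 0.00463), Irgm2 at 2.19 (adjusted p = 0.00189), Gbp10 at 2.20 (adjusted p = 0.00137) and Igtp at 1.46 (adjusted p = 0.0343, edgeR with the block). Iigp1 fell by 1.21 (adjusted p = 0.0363) and Tgtp1 by 1.95 (adjusted p = 0.025, edgeR with the block), and Tgtp2 with -1.47 did not pass (adjusted p = 0.0612, edgeR with the block). Without the block these 3 effectors had log2 fold changes of -1.18, -1.85 and -1.34 with adjusted p of 0.372, 0.292 and 0.511 (edgeR). The call on Tgtp1 rests on 6 counts in the combination against 19 with DMSO, summed over the lines. Tgtp1 reached 10 counts only with PD173074 (28 in A1005 and 12 in A1129), a treatment used to choose the genes. In A1129 and A1471, Gbp10 reached 10 counts only with PD173074 (13 and 20) and in the combination (17 and 25), where it was high. The call on Irgm1, Gbp2 and Gbp3 also depended on the lines included. Without A1471 none of the 10 genes passed, with Irgm1 at 1.62 (adjusted p = 0.0809, edgeR), 2 of the 10 had an unadjusted p under 0.05, and 120 of 14021 genes passed in all. Without A1005 only Irgm1 of the 10 passed, although 2021 of 13568 genes passed in all, against 1990 of 13836 with the 3 lines. Without A1129 only Irgm1 and Gbp2 passed, and 324 of 13791 genes in all.

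The composition of the GTPase transcripts shifted between treatments. With DMSO the genes summed to 103, 55.8 and 36.9 CPM in A1005, A1129 and A1471, and with Crizotinib to 21.1 to 59.8 CPM. With PD173074 the sums were 305, 105 and 357 CPM, and in the combination 475, 164 and 677. Gbp2 made up 29.6% to 38.3% of the sum with DMSO and 48.9% to 63.3% in the combination. The 3 effectors made up 5.61% to 13.7% with DMSO, 0.340% to 0.573% with Crizotinib, 2.10% to 10.2% with PD173074 and 0.290% to 1.19% in the combination. A1471 had the lowest sum of the 3 lines with DMSO and the highest in the combination.

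**Figure D4:**
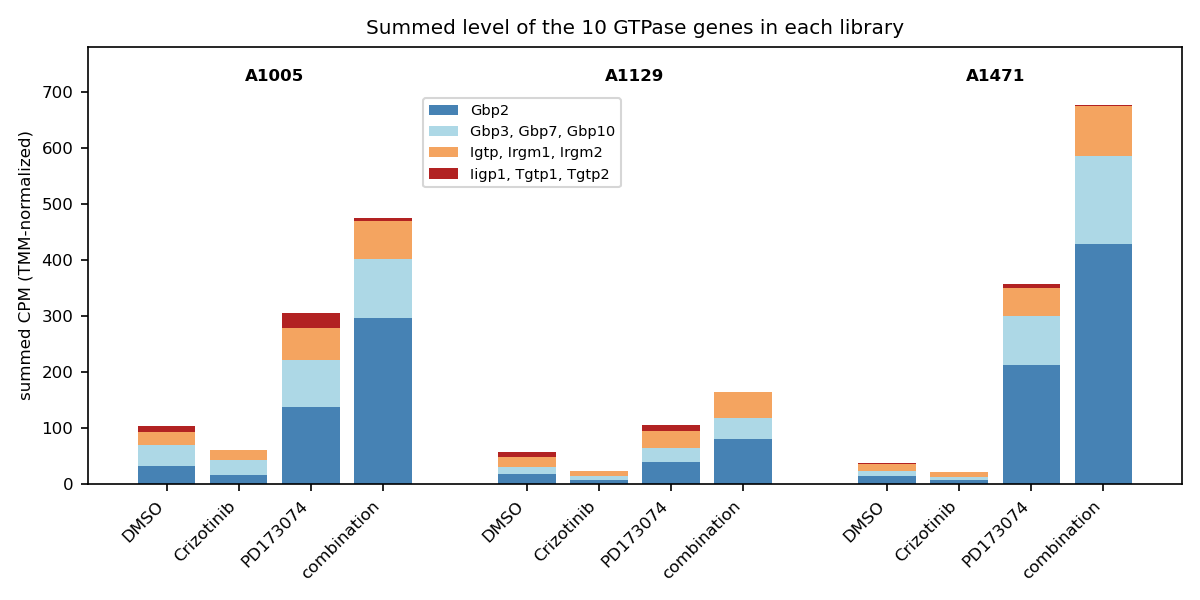
Summed CPM (TMM-normalized) of the 10 genes in each library, stacked by group of genes, for the 3 cell lines and 4 treatments. The combination gives the tallest bar in each line, 475, 164 and 677 CPM, and Gbp2 is its largest component.

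Levels were compared between genes per kilobase of exon. Gbp2 was the most abundant with every treatment, at 8.13 ± 3.53 CPM per kilobase with DMSO, 3.78 ± 1.92 with Crizotinib, 51.6 ± 34.6 with PD173074 and 107 ± 69.9 in the combination (SD, n = 3). With DMSO, Igtp (2.46 ± 1.56), Gbp7 (2.15 ± 2.06), Gbp3 (2.14 ± 1.22), Irgm1 (1.79 ± 0.154), Iigp1 (1.01 ± 0.670) and Irgm2 (0.860 ± 0.573) followed, and each of these overlapped its neighbour within 1 SD. Tgtp2 (0.157 ± 0.0995), Tgtp1 (0.143 ± 0.0687) and Gbp10 (0.136 ± 0.145) were the lowest and did not differ beyond their spread. In the combination Gbp3 (14.9 ± 9.69) and Gbp7 (8.75 ± 5.02) ranked after Gbp2, and Iigp1 (0.445 ± 0.372) ranked eighth, below Gbp10 (0.575 ± 0.352) but within its spread.

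The cell lines were compared with the treatment as a term in the model. Of the 10 genes, 8 passed the filter on low counts in this fit, and Tgtp1 and Tgtp2 did not. A1129 was lower than A1005 for 6 of the 8, against 28.9% of all genes tested. The log2 differences were -2.13 ± 0.45 for Gbp7 (adjusted p = 0.00229), -1.99 ± 0.37 for Gbp10 (adjusted p = 0.00104), -1.44 ± 0.41 for Gbp2 (adjusted p = 0.0124), -1.38 ± 0.37 for Irgm2 (adjusted p = 0.00902), -1.26 ± 0.49 for Gbp3 (adjusted p = 0.0464) and -1.20 ± 0.39 for Iigp1 (adjusted p = 0.0229, edgeR, SE). Without the PD173074 libraries only Gbp7 and Gbp10 passed. A1471 was lower than A1005 for Iigp1 (-1.81 ± 0.41, adjusted p = 0.00341), Irgm2 (-1.44 ± 0.37, adjusted p = 0.00694) and Gbp10 (-1.33 ± 0.35, adjusted p = 0.00834, edgeR), 3 of the 8 against 30.4% of all genes. Without the DMSO or the PD173074 libraries 2 of the 8 passed. Without the combination or the Crizotinib libraries all 10 genes passed the filter on low counts, and 7 and 5 of the 10 were lower in A1471, Tgtp1 and Tgtp2 among them in both fits. In A1471 Tgtp1 had at most 4 counts and Tgtp2 at most 5, against 28 and 34 with PD173074 in A1005. These 2 genes thus passed the filter through the lines in which they were higher.

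A1471 was higher than A1129 for Gbp2 (1.41 ± 0.42, adjusted p = 0.0204) and Irgm1 (0.53 ± 0.18, adjusted p = 0.0384, edgeR), 2 of the 8 against 21.6% of all genes. Without the PD173074 libraries none of the 8 passed and 0 had an unadjusted p under 0.05, and without the combination libraries only Iigp1 did, which was lower in A1471 (-1.09, adjusted p = 0.0185, edgeR). Without the DMSO libraries 4 passed, all higher in A1471. Irgm1 varied least relative to its mean among the lines with DMSO, at 9.46 to 11.2 CPM, and its differences from A1005 were -0.30 ± 0.19 in A1129 (adjusted p = 0.185) and 0.22 ± 0.18 in A1471 (adjusted p = 0.322, edgeR). Each line is a single tumour, and these tests measure the difference against the spread left after line and treatment. The leukocyte marker Ptprc was also higher in A1005, and its part in these differences was not tested.

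The 10 genes varied together in 2 sets. On log2 CPM centred within each line, Pearson r over the 12 libraries was 0.88 to 0.98 for the 3 pairs among Iigp1, Tgtp1 and Tgtp2. It was 0.83 to 0.99 for the 21 pairs among the other 7 genes and 0.19 to 0.74 for the 21 pairs between the sets. The libraries share lines, treatments and depth, and Tgtp1 and Tgtp2 share most of their sequence, so these are descriptions. The DMSO, Crizotinib and PD173074 libraries were also used to choose the genes. High r among them, and likeness of other genes to their mean, was thus in part fixed by the choice. Outside the GTPase lists, the genes whose pattern was most like the mean of the 10 were Nos2, Nfil3, Lrrc8d, Bcl3, Ackr3, Cc2d2a, Zbp1, Irf7, Cndp2 and Ccn2, with r from 0.93 to 0.95. Nos2, the inducible nitric oxide synthase, had DMSO counts of 400, 56 and 53, then 302, 9 and 22 with Crizotinib, 1273, 67 and 312 with PD173074 and 1441, 54 and 179 in the combination.

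A further 19 genes of the same GTPase families were followed, of which 10 passed the filter. With Crizotinib and with PD173074 none of the 10 passed by edgeR or DESeq2, and 0 and 2 of them had an unadjusted p under 0.05 by edgeR. With the block, Gbp2b alone passed with PD173074. In the combination Gbp9 rose by 3.88 ± 0.90 (adjusted p = 0.0195) and Gbp2b by 3.38 ± 0.75 (adjusted p = 0.0169, edgeR, SE). Gbp9 had 50, 39 and 10 counts with DMSO and 793, 199 and 654 in the combination, and so resembled its relative Gbp2. With the block Mx1, Ifi47, Gbp4 and Gbp5 also rose. That made 6 of these 10, against 28.6% of all genes, and 2 without the block, against 6.1%. In A1129 alone Mx1, Gbp4 and Gbp5 were lower than with DMSO, with log2 changes of -0.43, -0.56 and -1.04, and Ifi47 changed by 0.15. The fall of the 3 effectors from PD173074 to the combination in every line was seen in 0 of these 10 further genes, against 29.2% of all genes tested. Ifi47 had 119, 27 and 34 counts with PD173074 and 201, 13 and 40 in the combination. Gm4951, which shares 2.83% of the 50-base stretches of Iigp1, had 41, 8 and 3 counts with DMSO, 176, 10 and 1 with PD173074 and 102, 7 and 2 in the combination. Of the 7 with a promoter in the RefSeq table, 3 held an ISRE core.

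The signalling genes upstream of the GTPases were read in the same way. Ifng had 0 counts in all 12 libraries, which allows a level of up to 3 counts, and Ifnb1 had 1 count in total. Of 12 genes of interferon gamma signalling, 10 were tested, and 30.0% of these passed in the combination, against 14.4% of all genes tested. In the combination the receptor subunit Ifngr2 rose by 1.33 ± 0.21 (adjusted p = 0.00313). Socs1, a feedback inhibitor of Janus kinases, fell by 1.30 ± 0.39 (adjusted p = 0.0495) and the transcription factor Irf8 fell by 2.96 ± 0.39 (adjusted p = 0.00137, edgeR, SE). Irf8 had 366, 567 and 402 counts with DMSO and 102, 57 and 36 in the combination.

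Irf1, an early transcriptional activator of this response, had 806, 524 and 1018 counts with DMSO and 3721, 1301 and 3087 in the combination. Its log2 fold change of 1.64 ± 0.50 did not pass (adjusted p = 0.0553, edgeR) except with the block (adjusted p = 2.02e-05, edgeR). Among 9 tested genes of type I interferon signalling, Stat2 rose by 1.84 ± 0.41 (adjusted p = 0.0177) and the receptor subunit Ifnar1 by 0.80 ± 0.16 (adjusted p = 0.0107, edgeR). Of these 9 genes 22.2% passed, against 14.4% of all genes tested.

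Of 30 interferon-stimulated genes, all of them tested, 8 rose in the combination and 0 fell, against 6.1% and 8.28% of all genes tested. The 8 were led by Rtp4 at 3.40, Parp14 at 3.18 and Xaf1 at 3.14 on the log2 scale. The others were Ifit1, Ifit2, Ifit3, Parp9 and Ddx58. The lines were not alike, with log2 changes in A1005, A1129 and A1471 of 3.30, 0.37 and 4.69 for Rtp4. They were 2.90, -0.09 and 4.14 for Ifit1, the only gene of these below 0 in A1129, and 2.65, 2.76 and 4.25 for Parp14. For this list 15 had an unadjusted p under 0.05, and DESeq2 called 13 higher and 0 lower, against 9.92% and 10.7% of all genes it tested. With the block 22 rose, and Oasl1 and Ifi204 fell, against 28.6% of all genes rising and 26.2% falling. Of the 22, Zbp1, Oasl2, Oas2, Trim30a and Ifit1 were lower than with DMSO in A1129, and the rest were higher there. Of 20 tested genes of antigen presentation and chemokines, Tapbp (1.93) and Psmb10 (1.44) rose, 16 of the 20 rose with the block, and DESeq2 called 6 of the 18 it tested higher. Of the 16, Cxcl11 and Psmb9 were lower than with DMSO in A1129, and the rest were higher there. Cd74, the invariant chain, had a log2 fold change of 6.25 ± 1.88 (adjusted p = 0.0517, and 5.5e-05 with the block, edgeR), while its partners H2-Aa and H2-Ab1 had 0 counts in every library. Of 11 autophagy conjugation genes, whose products are needed to place GTPases on vacuoles, Gabarap rose by 1.37, Map1lc3a by 1.58 and Map1lc3b by 1.25. The share rising over all genes was 6.1%. With the block 6 of the 11 rose, against 28.6% of all genes.

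Over all 104 listed genes other than the 10, of which 90 were tested, 18 rose and 2 fell in the combination, and 61 rose and 5 fell with the block. For comparison 6.1% and 8.28% of all genes rose and fell without the block and 28.6% and 26.2% with it. The median log2 fold change of the 90 was 1.35, against 0.02 over all genes. With PD173074 alone none of the 90 passed without the block by edgeR or DESeq2, although 11 had an unadjusted p under 0.05 by edgeR and 17 by DESeq2, which called 0.174% of all genes higher and 0.0395% lower. With the block 9 rose (Irf1, Parp9, Tapbp, Cd74, Parp14, Gbp2b, Samd9l, Dtx3l, H2-T23) and Irf8 fell, against 1.62% of all genes rising and 0.52% falling. With Crizotinib 0 of 90 passed by edgeR, with or without the block, or by DESeq2, and 0.0% of all genes passed by edgeR and 0.00356% by DESeq2. An unadjusted p under 0.05 was found for 2 by edgeR, 8 with the block and 3 by DESeq2, and the median of the 90 was -0.17 against 0.00 over all genes.

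**Figure D5:**
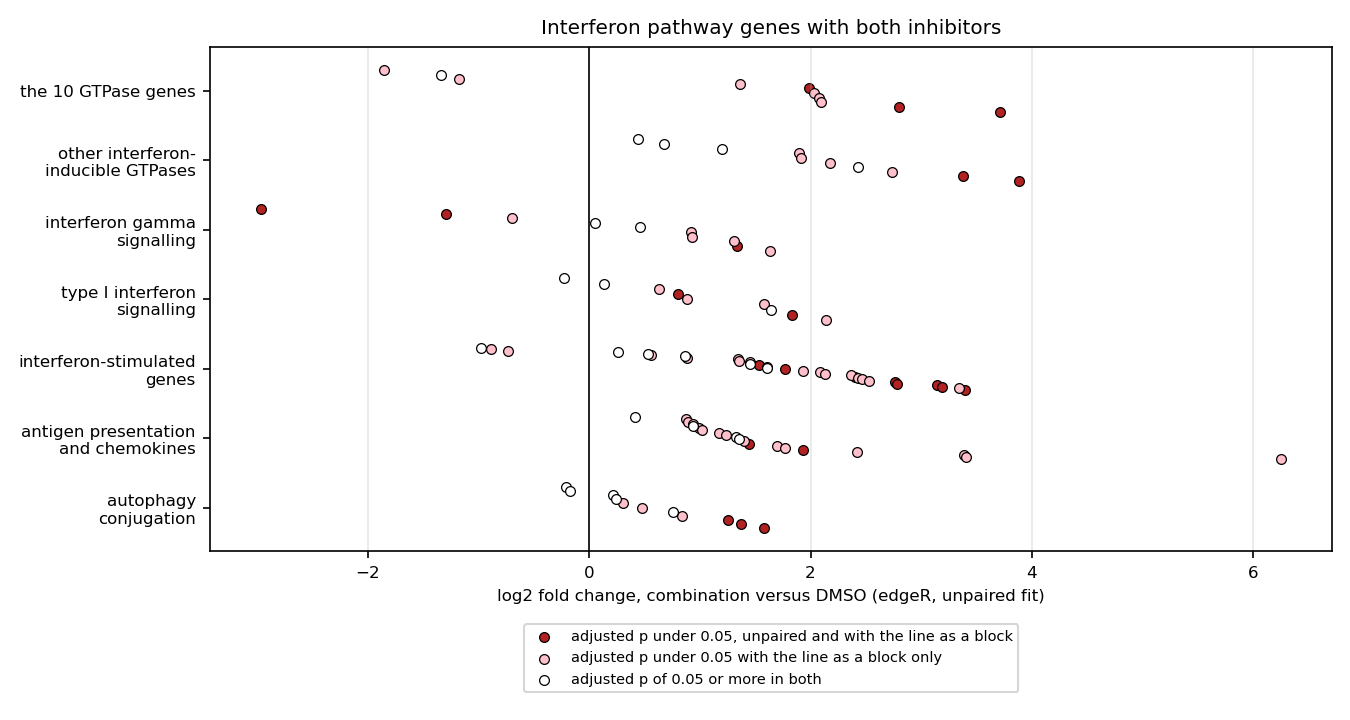
Log2 fold change of the combination against DMSO (edgeR, unpaired fit) for each tested gene of the 10 GTPase genes and of 6 lists of interferon-related and autophagy genes. Dark red points passed an adjusted p of 0.05 with and without the cell line as a block, pale points with the block only, and open points in neither. The 3 effectors are the points below 0 in the top row, and most listed genes lie above 0.

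Several of the counts carry a limit from shared sequence. Gbp10 shares 79.2% of its 50-base stretches with Gm43302, and 46.3% of its exon bases lie in that overlapping gene. Gm43302 itself had 0 CPM with DMSO and Crizotinib and 0.177 ± 0.120 CPM in the combination (SD, n = 3). How reads in shared exons were counted is not known, so this low level does not show that the Gbp10 counts are free of the limit. Igtp shares 12.3% with Irgm2 (6.29% in the other direction) and Gbp7 shares 10.6% with Gm43802. Iigp1, Irgm1, Gbp2 and Gbp3 share at most 4.79% with any 1 gene.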

How the data were processed

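RNA was sequenced from tumourspheres of 3 cell lines under 4 treatments. The authors deposited an unnormalized table of read counts per Ensembl gene. The submitters' processing notes name bcl2fastq, STAR, HTSeq and the mm10 build; versions and the use of strand in counting are not given in the sources used here. Groups came from the sample labels.

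Low counts were removed by filterByExpr (at least 10 counts, and 15 in total), TMM factors were applied, and differences were tested by quasi-likelihood in edgeR 4.0.16 (R 4.3.3), two-sided, with Benjamini-Hochberg adjustment over all 13836 genes tested (13475 for comparisons of lines) and a threshold of 0.05. The treatment was fitted over all 12 libraries without a block, as in the study's methods, or with treatment and line for the lines. Libraries of a line are paired because they come from the same cell line. Deviations from the group means correlated at 0.766 to 0.962 (mean 0.871) in 18 same-line pairs and averaged -0.422 in 36 others. Log2 CPM used a prior count of 2. Alternatives were the line as a block, DESeq2 1.42.0, its size factors, total counts alone, no filter, a prior count of 0.5 and leaving out lines or treatments. On simulated counts with 200 genes changed by a log2 fold of 2, edgeR recovered 200 with 3 false calls among 13591 genes for the combination and 199 with 5 among 13459 for A1129 against A1005. Apart from the changed genes, the simulated counts held no difference between cell lines, and genes of low mean count were not changed. These values therefore check the code and do not give the power in the real data.

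The 10 genes and the lists were chosen with earlier results of these data known. Genes named are the 10, the listed genes that passed (or, where none did, the most abundant), and the 10 outside the GTPase lists with the highest r with the mean of the 10; Irf1, Cd74, Gm4951 and Gm43302 were named after their values were seen. Replicates are separate cell lines. Without the block, p-values of treatments measure the difference against the spread between lines, and the pairing of libraries by line is not used. With the block they measure it against the spread left after line and treatment. Locations, exon lengths and shared 50-base stretches came from GENCODE M21. Tables and plots were made in Python 3.11.15 (pandas 2.3.3, matplotlib 3.10.9, numpy 2.4.6). A few withheld items are not reported here.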

Additional observations from a re-analysis of the deposited data

Results flagged for a closer look

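Gbp5, a guanylate-binding protein outside the 10 genes, moved in opposite directions in the cell lines with the combination. It had 40, 12 and 1 counts with DMSO in A1005, A1129 and A1471 and 389, 5 and 61 in the combination, log2 changes of 2.74, -1.04 and 4.54. The highest and lowest differed by 5.58. Gbp5 was not alone in this, as Ifi44 (1.23, -3.00 and 3.94) and Mx2 (1.92, -1.74 and 4.55) also moved in opposite directions. With 1 library per line and treatment these differences were not tested.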

How the results depend on the processing

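The count of the 10 genes called in the combination against DMSO was 3. Blocking on the cell line gave 9, DESeq2 gave 4, and leaving out a line gave 0 to 2. For the 90 other listed genes the count was 20, and 66 with the block, 35 by DESeq2 and 0 to 17 without a line. With PD173074 it was 0, and 10 with the block, and with Crizotinib 0 in every fit. Among the 10 genes, 6 differed between A1129 and A1005 (2 to 6 without a treatment), 3 between A1471 and A1005 (6 without the filter on low counts, 2 to 7 without a treatment) and 2 between A1471 and A1129 (4 without the filter, 0 to 4 without a treatment). The cause of these shifts was not tested, beyond the smaller number of libraries when some are left out. Leaving out a line leaves 2 lines per treatment.

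Of the gene-level results, 55 of the combination tests kept their side of the threshold, 7 crossed into it and 6 out of it; for the lines these counts were 144, 10 and 14. With a prior count of 0.5 the mean log2 change with Crizotinib became -3.77 for Tgtp1 and -3.70 for Tgtp2, and that of Gbp10 with PD173074 became 2.14, while 57 other values moved by less than the spread between lines. Depth limits Tgtp1, Tgtp2 and Gbp10 most, since several of their libraries hold 0 to 5 counts, and a change below the counting error was not detectable there.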
